A study of Mus musculus with 42 samples.

Results

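The 6 subcutaneous Pan02 tumours compared here were 3 BXCL701 tumours collected at 8 h on day 1 and 3 vehicle tumours collected at 0 h on day 1, out of 42 tumours in the series. They were chosen by treatment, day and hour as the labels give them, and no measured value entered the choice. Pan02 is a mouse pancreatic adenocarcinoma cell line, here grown in the flank of wild-type C57BL/6 mice with an intact immune system. BXCL701 tumours came from mice given a single oral dose of 20 µg, and vehicle tumours from mice given a single dose of vehicle. No vehicle tumour at 8 h was analysed here, so the drug and the hours between 0 h and 8 h cannot be told apart in this comparison. The BXCL701 tumours of day 1 collected at 1 h and at 16 h (3 each, same dose) and the BXCL701 tumours of days 7 and 14 collected at 0 h and at 8 h (12 in all, under daily dosing) served as points of reference. Each library came from a different animal. Neither the age and sex of the mice nor the clock time of collection is stated in the labels.

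BXCL701, also known as talabostat, is a small-molecule inhibitor of the dipeptidyl peptidase family, which includes the surface enzymes DPP4 and FAP and the cytosolic enzymes DPP8 and DPP9. Inhibition of DPP8 and DPP9 is known to activate the NLRP1 inflammasome, a caspase-1 platform that triggers pyroptosis and cytokine release. Peripheral tissues also follow the time of day. In the circadian clock CLOCK and BMAL1 drive the genes of their own repressors, and adrenal glucocorticoid, which rises daily and under stress, induces a set of genes through its receptor in nearly every cell type.

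The libraries were not uniform. Table sums ran from 20877200 to 24190900 scaled reads in the 6 libraries, and pairwise correlations of log2 values from 0.884 to 0.980. Vehicle replicate 2 stood apart. Its transcript-length index, the slope of a library's log2 deviations on log2 exon length, was -0.37, the second lowest of 42. The other vehicle libraries had indices of 0.03 and -0.02, and the 8 h libraries had 0.13, 0.15 and 0.10. Long transcripts were thus low in vehicle replicate 2, and values without it are given below where they matter. Skin and muscle markers also varied within groups. The mean level of the 12 keratinocyte markers was 4.96, 3.55 and 6.48 on the log2(value + 1) scale in vehicle tumours and 9.999, 7.21 and 3.98 at 8 h. The 14 skeletal muscle markers averaged 9.61, 11.8 and 10.04 in vehicle tumours and 10.3, 10.7 and 11.9 at 8 h. The simple epithelial keratin gene Krt8, which Pan02 cells express, was abundant in all 6 libraries, at 15086 to 35553 scaled reads. Cldn7 of the same tumour epithelium list was scarce, at 28.7 to 73.2. Of the 10 genes of that list, 7 stood lower at 8 h and 3 higher. The groups did not overlap for 3 of the lower genes (17.3% of all genes) and 1 of the higher (12.6%). The list's median log2 difference, 8 h minus vehicle, was -0.43 (-0.23 without vehicle replicate 2).

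**Figure D1:**
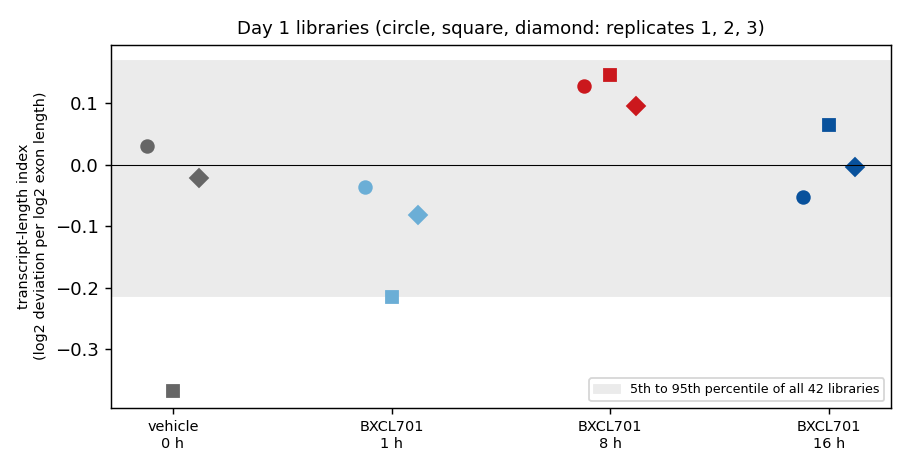
Transcript-length index (log2 deviation per log2 exon length, vertical axis) of the 12 day 1 libraries by group, with 1 point per tumour. Vehicle replicate 2 lies at -0.37, below the grey band of most libraries, and the 3 libraries at 8 h lie at 0.10 to 0.15.

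At 8 h against vehicle, no gene passed an adjusted p of 0.05 among 16613 tested (0% higher and 0% lower, limma with Benjamini-Hochberg adjustment). The smallest adjusted p was 0.0817, for Tsc22d3. At an unadjusted p under 0.05 there were 2742 genes (16.5%), and 393 without vehicle replicate 2. They numbered 1572 without 8 h replicate 1 and 1135 with the length index in the model. The count rose to 4001 without vehicle replicate 1 and to 3783 without vehicle replicate 3. All 3 tumours at 8 h stood above all 3 vehicle tumours for 2088 genes (12.6%) and below them for 2871 genes (17.3%), and the counts for gene lists below are to be read against these shares. The 10 smallest p-values among genes higher at 8 h included Tsc22d3, Fkbp5 and Per1 of the glucocorticoid-induced list and Per1, Nr1d1 and Per3 of the clock list. Differences below are log2 differences of log2(value + 1), 8 h minus vehicle, ± the standard error of the model, with 3 tumours a group.

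Glucocorticoid-induced genes led the higher side. Tsc22d3 (chrX:140539528-140600659, GRCm38), encoding the anti-inflammatory leucine zipper protein GILZ, stood at 728, 1006 and 978 scaled reads in vehicle tumours and at 1837, 2702 and 2586 at 8 h. The lowest 8 h tumour was well above the highest vehicle tumour, and the difference was 1.39 ± 0.25 (adjusted p = 0.0817). Fkbp5 (chr17:28399094-28517527), encoding a co-chaperone that restrains the glucocorticoid receptor, stood at 2324, 2853 and 2645 in vehicle tumours and at 5896, 7203 and 4951 at 8 h. The groups were again clearly separate, at 1.19 ± 0.23 (adjusted p = 0.124). Per1, both a clock repressor and a glucocorticoid target, stood at 730, 1198 and 996 in vehicle tumours and at 1749, 2955 and 3427 at 8 h, a difference of 1.45 ± 0.30 (adjusted p = 0.16). Here too every 8 h tumour exceeded every vehicle tumour.

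Zbtb16, encoding the transcription factor PLZF, was nearly silent in vehicle tumours, at 3.82, 9.31 and 9.72 scaled reads, and stood at 111, 57.6 and 65.3 at 8 h. This was the largest difference of the list, 3.22 ± 0.87 (adjusted p = 0.278). Pdk4, encoding a kinase that restrains pyruvate dehydrogenase, stood at 53.5, 85.9 and 56.8 in vehicle tumours and at 280, 215 and 571 at 8 h, with no overlap and a difference of 2.33 ± 1.07 (adjusted p = 0.285). Klf9, encoding a Krüppel-like factor, stood at 224, 24.0 and 229 in vehicle tumours and at 520, 469 and 492 at 8 h. Its low value lay in vehicle replicate 2, and its difference of 2.18 ± 0.83 (adjusted p = 0.278) was 1.12 without that library. Of the 13 glucocorticoid-induced genes, all tested, 10 stood higher, 7 without overlap of the groups (12.6% of all genes), and 0 passed. The list's median was 0.76, and 0.88 without vehicle replicate 2, where the median of all genes was 0.05 and 0.00 in the same fits.

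Clock genes formed the other leading group. Nr1d1 (chr11:98767932-98775333), encoding the repressor REV-ERBα, stood at 592, 860 and 720 scaled reads in vehicle tumours and at 1847, 1660 and 2326 at 8 h. The groups did not overlap, and the difference was 1.43 ± 0.31 (adjusted p = 0.161). Dbp (chr7:45705088-45710203), a clock output transcription factor, stood at 192, 415 and 348 in vehicle tumours and at 924, 885 and 1241 at 8 h. Every 8 h value was more than the highest vehicle value, with a difference of 1.73 ± 0.47 (adjusted p = 0.278). Per3, a paralogue of Per1, stood at 199, 84.3 and 252 in vehicle tumours and at 459, 544 and 583 at 8 h, a difference of 1.69 ± 0.44 (adjusted p = 0.278). Vehicle replicate 2 was its lowest library, and without it the difference was 1.23.

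Nr1d2, encoding REV-ERBβ, followed the same order, at 574, 218 and 704 scaled reads in vehicle tumours and at 1525, 1540 and 1130 at 8 h (1.64 ± 0.46, adjusted p = 0.278). Its lowest value was again that of vehicle replicate 2. Per2 stood at 1.27 ± 0.42, Ciart, encoding a repressor of CLOCK and BMAL1, at 1.10 ± 0.36, and Tef, a relative of Dbp, at 0.90 ± 0.28 (adjusted p = 0.278 each). Arntl, which encodes BMAL1 and peaks opposite to the repressors, lay the other way. It stood at 669, 353 and 597 in vehicle tumours and at 311, 353 and 329 at 8 h. Vehicle replicate 2 fell among the 8 h values, so the groups overlapped, and the difference of -0.65 ± 0.23 (adjusted p = 0.278) was -0.93 without it. Of 18 clock genes, 15 stood higher and 3 lower, 11 were higher without overlap (12.6% of all genes), and 0 passed. The clock list's median was 0.74 (0.60 without vehicle replicate 2).

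**Figure D2:**
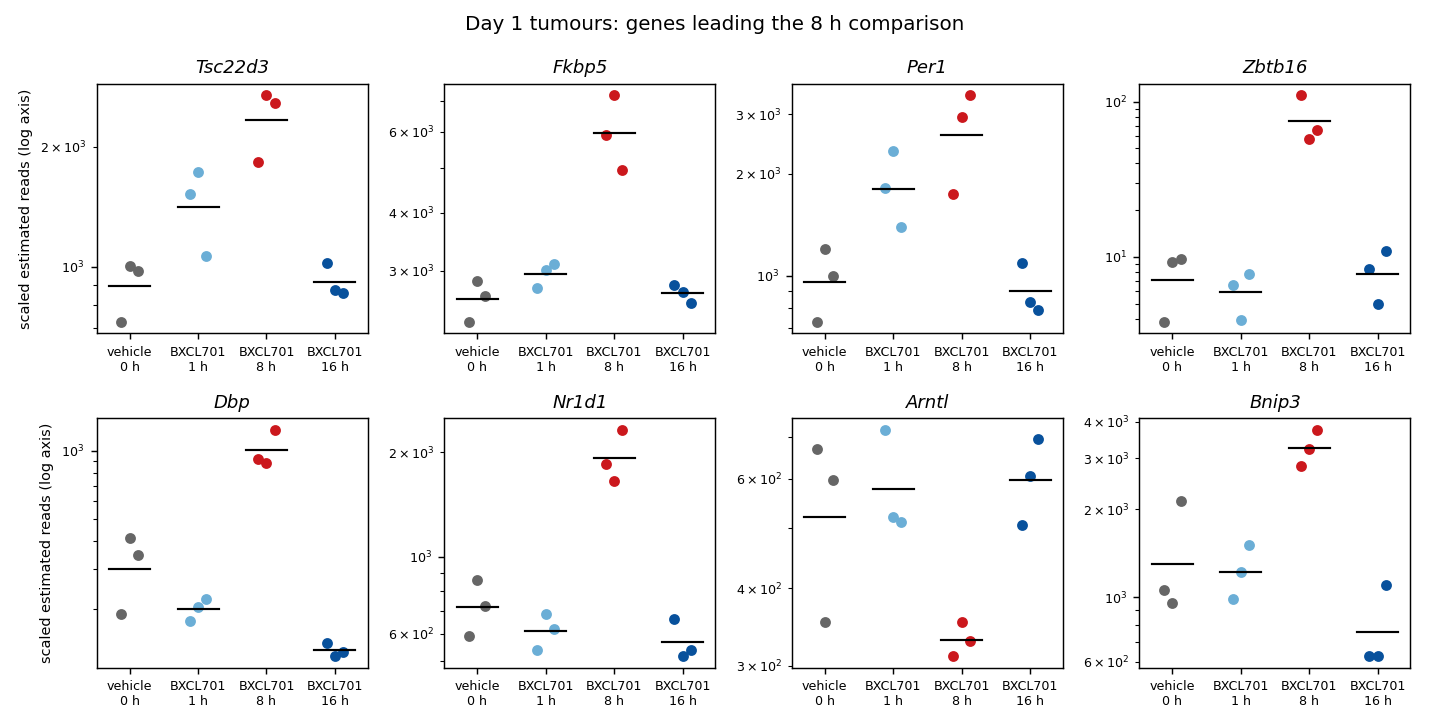
Scaled reads (log axis) of 8 genes in the 12 day 1 tumours by group, 1 point per tumour, with a line at the mean taken on the log2(value + 1) scale. Points at 8 h lie above vehicle for every gene shown except Arntl, and vehicle, 1 h and 16 h values of Dbp stay at or below 415.

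Start-site sequence of clock genes is shown because CLOCK and BMAL1 bind the E-box and DBP and TEF bind the D-box. Windows of 250 bases before to 50 after the start site were taken from RefSeq (GRCm38.p6) and searched on both strands for the E-box CACGTG and the D-box TTATGNAA, which do not overlap in the windows shown. Matches are in capitals. The first of 2 Per1 windows (chr11:69098699-69098998, plus strand), shown here, held 1 E-box and 1 D-box. The second Per1 window (chr11:69099902-69100201, plus strand, not shown) held neither motif. Ciart (chr3:95882179-95882478, minus strand) held 3 E-boxes. Dbp (chr7:45704997-45705296, plus strand) held neither motif in this window, nor did Nr1d1 (chr11:98775328-98775627, minus strand, not shown).
Per1: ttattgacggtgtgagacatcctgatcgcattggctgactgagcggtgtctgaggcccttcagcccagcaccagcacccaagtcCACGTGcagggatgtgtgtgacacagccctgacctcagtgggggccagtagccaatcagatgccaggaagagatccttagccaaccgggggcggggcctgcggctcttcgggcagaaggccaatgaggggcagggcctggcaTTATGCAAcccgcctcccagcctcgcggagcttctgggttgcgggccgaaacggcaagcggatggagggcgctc
Ciart: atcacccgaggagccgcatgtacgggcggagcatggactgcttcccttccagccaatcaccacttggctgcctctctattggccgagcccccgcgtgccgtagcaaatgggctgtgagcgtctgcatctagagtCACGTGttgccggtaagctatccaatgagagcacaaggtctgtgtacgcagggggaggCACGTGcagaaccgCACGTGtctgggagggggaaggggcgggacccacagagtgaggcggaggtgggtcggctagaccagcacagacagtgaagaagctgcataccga
Dbp: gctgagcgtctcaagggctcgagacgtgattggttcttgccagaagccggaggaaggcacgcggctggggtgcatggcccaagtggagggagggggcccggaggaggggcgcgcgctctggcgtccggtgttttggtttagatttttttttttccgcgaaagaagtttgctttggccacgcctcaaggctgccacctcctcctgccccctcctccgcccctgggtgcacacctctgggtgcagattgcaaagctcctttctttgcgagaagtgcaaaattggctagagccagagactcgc
The E-box occurred in 7.15% of all 32851 windows and the D-box in 3.38%. By gene, 5 of the 15 clock genes with a window held an E-box (33.3%), against 8.09% of all genes and 10.9% of tested genes. The share was also 33.3% in the glucocorticoid-induced list (4 of 12). The full palindromic glucocorticoid response element was found at 1 of 12 glucocorticoid-induced genes and in 0.00913% of all windows. These matches describe letters in a short window and were not tied to the expression values.

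Within drug-treated tumours of day 1, 8 h was set against the mean of 1 h and 16 h. These animals had a single dose, so time since the dose and time of day cannot be told apart here either. Here 11 genes passed higher at 8 h (0.0662% of those tested) and 3 lower (0.0181%). Dbp showed 178, 204 and 222 scaled reads at 1 h and 142, 124 and 130 at 16 h, far under the 8 h values. It was higher at 8 h by 2.62 ± 0.41 (adjusted p = 0.00248). Nr1d1 showed 539, 683 and 620 at 1 h and 661, 517 and 540 at 16 h, and was higher at 8 h by 1.70 ± 0.27 (adjusted p = 0.00248). Its values at 1 h and 16 h were spread like those of vehicle. Nr1d2 (1.95 ± 0.39), Per3 (1.82 ± 0.38) and Ciart (1.502 ± 0.31) also passed. Thus 5 of 18 clock genes passed higher at 8 h and 0 passed lower, while 14 of the 18 stood higher.

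Fkbp5 was higher at 8 h than at the other hours by 1.08 ± 0.20 (adjusted p = 0.0223), with 2549 to 3093 scaled reads in the 6 tumours of 1 h and 16 h. Tsc22d3 was higher by 1.04 ± 0.22 (adjusted p = 0.0494), and its 1 h tumours (1520, 1734 and 1067) stood between vehicle and 8 h. Per1 had 1813, 2336 and 1396 at 1 h, above every vehicle tumour but overlapping the 8 h values, and did not pass (1.03 ± 0.26, adjusted p = 0.133). Zbtb16 stood at 3.90 to 10.98 in the 6 tumours of the other hours (3.29 ± 0.75, adjusted p = 0.0871). The remaining genes that passed higher were Bnip3, Pdk1 and Fbxo32, described below, and an unnamed clone, B430305J03Rik. That clone was at 142, 107 and 98.8 at 8 h and at or under 0.546 at 1 h and 16 h, while vehicle tumours gave 108, 0 and 0.001.

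Of the genes that passed lower, Pinx1, encoding a nucleolar telomerase inhibitor, stood at 204, 211 and 231 scaled reads at 8 h and at 314 to 474 at the other hours (-0.91 ± 0.15, adjusted p = 0.00419). Trmt61a, encoding a tRNA methyltransferase subunit, stood at -0.94 ± 0.20 and Hexdc, encoding a hexosaminidase, at -0.81 ± 0.17 (adjusted p = 0.0494 each). Single libraries moved the count of 14 strongly. It was 5, 6 and 6 without 1 h replicates 1, 2 and 3, then 3, 3 and 7 without 8 h replicates 1, 2 and 3. Without 16 h replicates 1, 2 and 3 it was 6, 4 and 15. Dbp, Nr1d1 and Bnip3 passed in all 9 of these fits that leave out a library, while Nr1d2, Per3, Trmt61a, Tsc22d3 and the clone passed in 0 of them. When only the 9 libraries of this comparison were fitted, 2581 genes passed, among them all 14.

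At the other hours of day 1 the same vehicle libraries are the baseline, so only the values are set side by side. At 1 h 0 genes passed against vehicle (0%, with 109 at an unadjusted p under 0.05), and at 16 h 2 genes passed (0.012%), the immediate early genes Fos (2.18 ± 0.38) and Egr1 (1.89 ± 0.30). The clock list had medians of -0.04 at 1 h, 0.74 at 8 h and -0.02 at 16 h against vehicle. The glucocorticoid list had 0.10, 0.76 and 0.04, and the interferon gamma list 0.28, -0.73 and -0.49. The 16 h tumours were not alike in the interferon gamma list. Its gene Cxcl9 stood at 4903, 4362 and 643 scaled reads at 16 h and at 4712, 5596 and 2418 in vehicle tumours.

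Tumours of days 7 and 14 allowed an 8 h to 0 h comparison in which all animals had received the drug and no library is shared with day 1. Dosing was daily, so time since a dose and time of day cannot be told apart in that comparison. There, 16 genes passed higher (0.0963%) and 6 lower (0.0361%), and 0 passed when only these 12 libraries were fitted. Dbp was higher by 2.18 ± 0.33 (adjusted p = 0.000949), Tsc22d3 by 1.16 ± 0.18 (adjusted p = 0.000968), Ciart by 1.29 ± 0.26 (adjusted p = 0.0191) and Nr1d1 by 1.01 ± 0.22 (adjusted p = 0.045). These 4 genes were also among the 14 of day 1, in the same direction, which is 28.6% of those 14 and 18.2% of the 22. Arntl was lower by 1.24 at these days (-1.24 ± 0.16, adjusted p = 8.68e-05). These values are means over both days. Dbp stood at 3.09 on day 7 and 1.27 on day 14, Ciart at 1.77 and 0.81, Tsc22d3 at 0.96 and 1.35, and Arntl at -1.43 and -1.05. Nr1d1 stood at 2.18 on day 7 and at -0.17 on day 14. No test of day 7 against day 14 was run. Fkbp5 stood at 0.68 ± 0.16 and Per1 at 0.91 ± 0.21 without passing (adjusted p = 0.0885 and 0.0729). The count of 22 was 14 without day 7 0 h replicate 2, 11 without day 14 8 h replicate 1 and 72 without day 14 8 h replicate 2.

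The day 1 difference from vehicle was tested directly against the 8 h to 0 h difference of days 7 and 14. In this test 0 genes passed (0%, limma, smallest adjusted p = 0.133, with 3974 at an unadjusted p under 0.05). The baseline was vehicle on day 1 and BXCL701 tumours at 0 h on days 7 and 14. Day, baseline treatment and single or daily dosing therefore cannot be told apart in it. Zbtb16 stood at 3.22 on day 1 and 0.18 ± 0.61 on days 7 and 14 (-1.36 on day 7 and 1.71 on day 14), a difference of 3.05 (adjusted p = 0.133). Fos, which was higher by 2.35 ± 0.27 over days 7 and 14 (adjusted p = 1.23e-05), with 3.89 on day 7 and 0.80 on day 14, stood on day 1 at 416, 237 and 454 scaled reads in vehicle tumours and at 414, 386 and 654 at 8 h, overlapping (0.41 ± 0.38, and 0.12 without vehicle replicate 2). Between these comparisons Fos differed by -1.94 (adjusted p = 0.133). Of the 18 immediate early genes, 6 passed higher on days 7 and 14 (median 0.83), and on day 1 the list's median was 0.08 (-0.020 without vehicle replicate 2). Dusp1, a phosphatase gene shared by that list and the glucocorticoid list, stood at 0.30 ± 0.32 on day 1 (0.13 without vehicle replicate 2) and was higher by 1.70 ± 0.22 over days 7 and 14 (adjusted p = 8.68e-05), with 2.53 on day 7 and 0.87 on day 14.

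**Figure D3:**
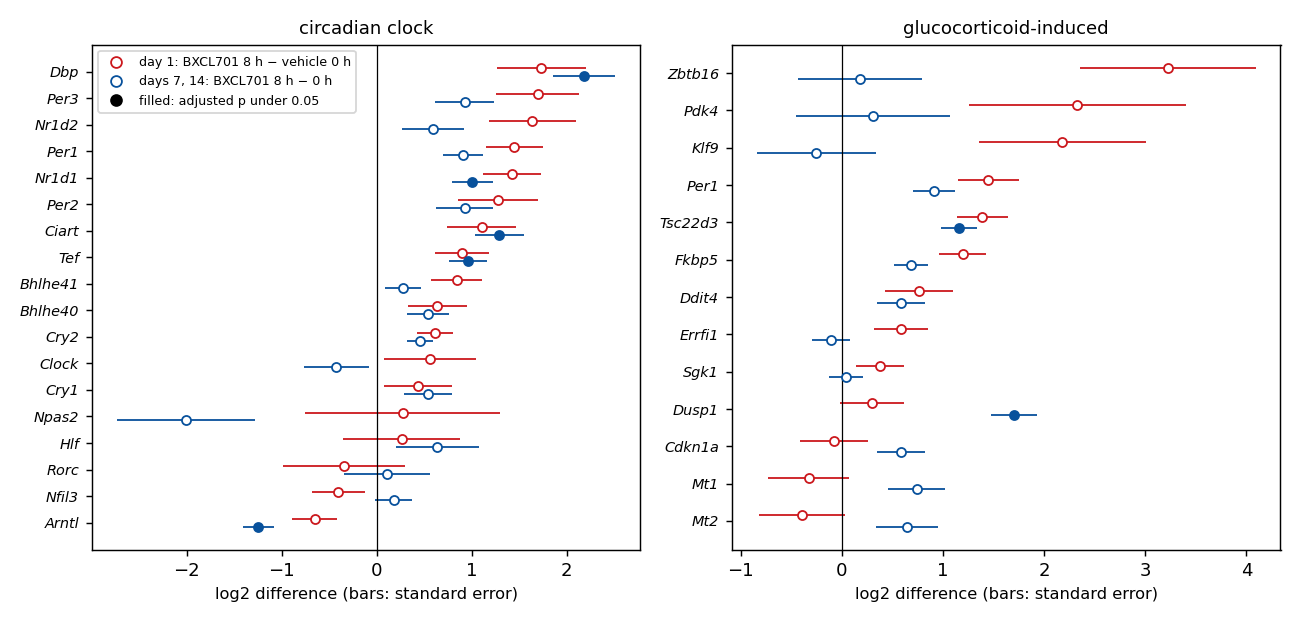
Log2 differences (horizontal axis, bars are standard errors) of each clock gene (left) and glucocorticoid-induced gene (right) for day 1 8 h minus vehicle 0 h (red) and days 7 and 14 8 h minus 0 h (blue). Filled points passed an adjusted p of 0.05: no red point is filled, and Dbp, Nr1d1, Ciart, Tef, Arntl, Tsc22d3 and Dusp1 are filled in blue.

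Some genes of glucose use and low oxygen stood higher at 8 h. Bnip3 (chr7:138890836-138909519), a hypoxia-induced mitophagy receptor, stood at 1060, 958 and 2140 scaled reads in vehicle tumours and at 2815, 3232 and 3758 at 8 h, without overlap (1.32 ± 0.32, adjusted p = 0.273). Against 1 h and 16 h it was higher by 1.76 ± 0.28 and Pdk1, a pyruvate dehydrogenase kinase, by 1.05 ± 0.20 (adjusted p = 0.00248 and 0.0223). The glucose transporter gene Slc2a1 stood at 0.88 ± 0.28 and the glycolytic regulator Pfkfb3 at 0.96 ± 0.30 against vehicle (adjusted p = 0.278 each). Of 16 hypoxia and glycolysis genes, 10 stood higher and 6 lower, against 8834 higher among all 16613 tested. The list's median was 0.55, with 6 genes higher without overlap (12.6% of all genes) and 0 lower. Against the other hours of day 1, 2 passed.

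Several genes outside these lists had small p-values as well. Irs2, encoding an insulin receptor substrate, stood at 388, 137 and 337 scaled reads in vehicle tumours and at 698, 632 and 873 at 8 h (1.47 ± 0.31, adjusted p = 0.16). Vehicle replicate 2 was lowest, and the difference was 1.01 without it. Fbxo32, encoding the ubiquitin ligase atrogin-1, stood at 557, 323 and 731 in vehicle tumours and at 1099, 1101 and 1550 at 8 h (1.28 ± 0.29, adjusted p = 0.194) and was higher than at 1 h and 16 h by 1.32 ± 0.25 (adjusted p = 0.0223). Atrogin-1 is also abundant in muscle, and with the skin, muscle and fat marker levels in the model the difference from vehicle was 1.14. Sla, encoding an adaptor that dampens antigen receptor signalling, stood at 599, 526 and 458 in vehicle tumours and at 867, 982 and 863 at 8 h, without overlap (0.78 ± 0.20, adjusted p = 0.278). On the sterol side, 13 of 14 cholesterol synthesis and uptake genes stood lower, 7 without overlap (17.3% of all genes). Their median was -0.41 (-0.43 without vehicle replicate 2). The synthesis enzyme genes Fdft1 (-0.74 ± 0.25), Msmo1 (-0.61 ± 0.23) and Fdps (-1.05 ± 0.32) had no overlap between the groups and did not pass (adjusted p = 0.278 each), and without vehicle replicate 2 Fdft1 was at -0.44 and Fdps at -0.68.

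Interferon gamma response genes stood lower at 8 h. Of 22 genes, 20 stood lower, 11 without overlap (17.3% of all genes), 0 passed, and the median was -0.73 (-0.59 without vehicle replicate 2). In bulk tumours, fewer cells of a type and less RNA per cell cannot be told apart. Socs1, a feedback inhibitor of cytokine signalling, stood at 546, 898 and 592 scaled reads in vehicle tumours and at 331, 259 and 335 at 8 h (-1.11 ± 0.35, adjusted p = 0.278). The immunoproteasome gene Psmb8 stood at 3036, 9329 and 2797 in vehicle tumours and at 1963, 1895 and 1728 at 8 h. Its groups were separate, but vehicle replicate 2 alone was very high, and the difference of -1.21 ± 0.45 (adjusted p = 0.278) was -0.65 without it. Psmb10 (-1.09 ± 0.36, and -0.59 without that library) and the tryptophanyl-tRNA synthetase gene Wars (-0.82 ± 0.29) were placed alike.

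The mean level of the interferon gamma list was 10.89, 11.01 and 10.30 on the log2 scale in vehicle tumours and 10.004, 10.16 and 10.06 at 8 h, every 8 h tumour lying below every vehicle tumour. Class I antigen presentation genes all stood lower, 10 of 10 and 8 without overlap (17.3% of all genes). Their median of -0.64 was -0.37 without vehicle replicate 2. H2-D1, a classical class I heavy chain gene, stood at 44228, 75086 and 35505 in vehicle tumours and at 28402, 27507 and 28613 at 8 h (-0.80 ± 0.32, adjusted p = 0.279, and -0.49 without vehicle replicate 2). The peptide-loading genes Tapbp (-0.66 ± 0.27), Tapbpl (-0.82 ± 0.30) and Tap2 (-0.71 ± 0.32) followed, none passing, with Tapbp at -0.41 and Tap2 at -0.45 without that library. Class II genes had a median of -0.74 that was -0.14 with the length index in the model and -0.32 without vehicle replicate 2. H2-DMb1 stood at -1.18 ± 0.50, and at -0.57 without that library.

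Type I interferon genes were less uniform, with 14 of 22 lower, 0 without overlap and a median of -0.31 (-0.20 without vehicle replicate 2). Ifit3 (-1.09 ± 0.46), Oasl1 (-0.90 ± 0.36) and Bst2 (-0.85 ± 0.34) had overlapping groups, and stood at -0.74, -0.46 and -0.42 in that order without vehicle replicate 2. The chemokine Cxcl10, which draws CXCR3-bearing lymphocytes, stood at 784, 910 and 630 scaled reads in vehicle tumours and at 356, 460 and 408 at 8 h, without overlap (-0.91 ± 0.48, adjusted p = 0.317). Cxcl9 overlapped (-0.54 ± 0.61, and -0.30 without vehicle replicate 2), as did its receptor gene Cxcr3 (-0.70 ± 0.39). Cd274, encoding PD-L1, stood at 459, 294 and 323 in vehicle tumours and at 380, 344 and 484 at 8 h, overlapping (0.18 ± 0.43, adjusted p = 0.839, and 0.049 without vehicle replicate 2), and its sign turned with the length index in the model (-0.17).

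In the B cell and T cell lists, genes without overlap were few, and a few antibody and cytotoxic genes had large differences with wide errors. Igkc, the kappa light chain constant gene of plasma and B cells, stood at 1436, 3600 and 1492 scaled reads in vehicle tumours and at 164, 122 and 111 at 8 h. The groups were far apart, yet across all groups this gene varied so much that -3.91 ± 1.57 gave an adjusted p of 0.279. Values at 1 h ranged from 725 to 11679 and at 16 h from 743 to 7172. Jchain, needed for polymeric antibodies, stood at 98.4, 183 and 215 in vehicle tumours and at 24.52, 13.02 and 13.35 at 8 h (-3.20 ± 1.38, adjusted p = 0.281). The B and plasma cell list had 7 of 10 genes lower, only 2 without overlap (17.3% of all genes), and a median of -0.80. Blood markers moved with it: all 5 red blood cell genes stood lower (median -1.36, and -0.74 without vehicle replicate 2), with summed levels of 1416 to 9474 in vehicle tumours and 1047 to 1509 at 8 h, and their part in the result was not tested.

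Cytotoxic genes also stood lower without passing. The perforin gene Prf1 stood at 122, 120 and 86.8 scaled reads in vehicle tumours and at 50.4, 36.5 and 47.6 at 8 h, without overlap (-1.27 ± 0.51, adjusted p = 0.279). The granzyme gene Gzmb stood at 169, 101 and 110 in vehicle tumours and at 46.3, 43.8 and 63.3 at 8 h (-1.27 ± 0.58, adjusted p = 0.285). Ifng, the gene of interferon gamma itself, was scarce, at 26.0, 38.3 and 11.8 in vehicle tumours and 4.76, 6.24 and 15.5 at 8 h, and overlapped (-1.43 ± 0.70, adjusted p = 0.302). Of 16 NK and cytotoxic genes, 13 stood lower, 6 without overlap (17.3% of all genes), with a median of -0.84 (-0.66 without vehicle replicate 2). T cell genes were at a median of -0.57, with 2 of 18 lower without overlap (17.3% of all genes). That median was -0.15 with the length index in the model and -0.22 without vehicle replicate 2. Cd8a overlapped (-0.74 ± 0.46, and -0.35 without that library).

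**Figure D4:**
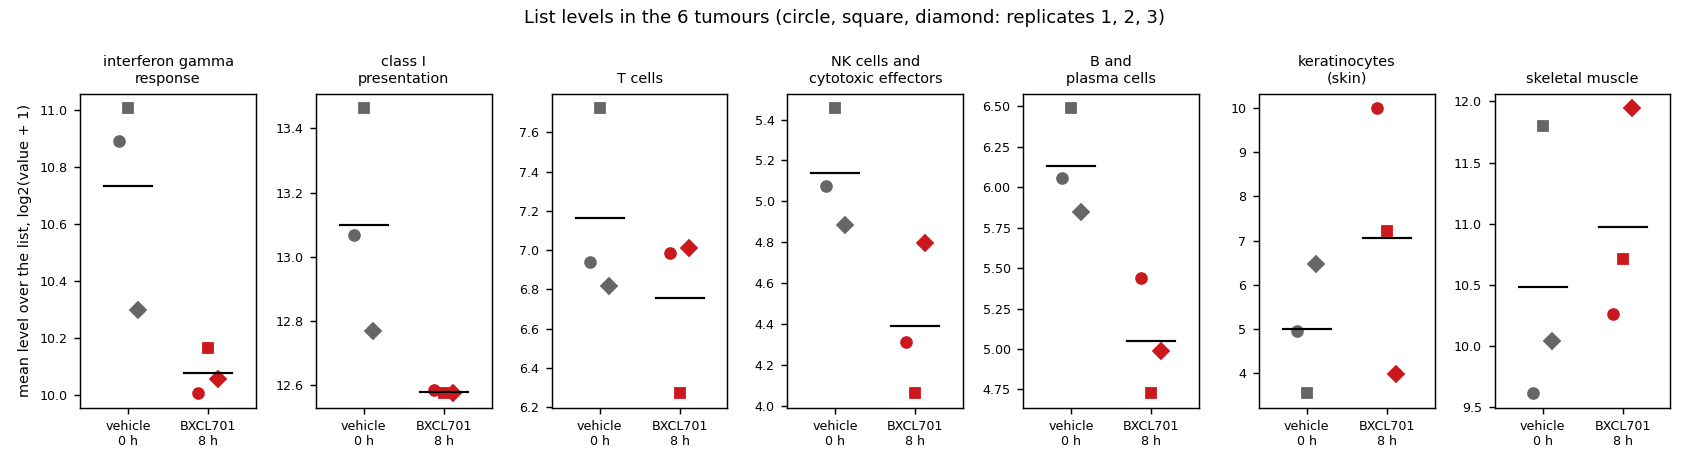
Mean level over each list on the log2(value + 1) scale (vertical axis, separate scales) in the 6 tumours, with lines at group means. Class I levels at 8 h lie at 12.6 in all 3 tumours and under every vehicle tumour, T cell levels overlap, and keratinocyte levels spread from 3.98 to 9.999 within the 8 h group.

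Myeloid and vascular genes were mixed. Mertk, a macrophage receptor for apoptotic cells that glucocorticoid is known to induce, stood at 225, 84.4 and 215 scaled reads in vehicle tumours and at 555, 551 and 488 at 8 h (1.72 ± 0.36, adjusted p = 0.16). It was the macrophage gene with the smallest p, and its difference was 1.27 without vehicle replicate 2. Mrc1, a marker of tissue-repair macrophages, stood at 0.96 ± 0.44, and the monocyte gene Ly6c2 at -1.33 ± 0.59 (-0.82 without vehicle replicate 2), while the list of 12 had a median of -0.28 that was -0.027 without vehicle replicate 2 and 0.20 with the length index in the model. Neutrophil genes had a median of -0.22 (-0.12 without vehicle replicate 2) with 0 of 13 lower without overlap, S100a8 being at -0.72 ± 0.36 (-0.31 without that library). The endothelial selectin gene Selp stood at 119, 100 and 107 in vehicle tumours and at 408, 534 and 659 at 8 h, a wide gap (2.26 ± 0.67, adjusted p = 0.278). Sele stood at 11.03, 0 and 9.63 in vehicle tumours and 28.6, 45.3 and 32.5 at 8 h (2.83 ± 0.95, and 1.66 without vehicle replicate 2). The 12 endothelial markers themselves had a median of 0.11 (0.022 without it).

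Both selectins belong to the NF-κB target list, which split, with 5 of 16 higher (12.6% of all genes) and 3 lower (17.3%) without overlap. The list's median was 0.34, with 0.14 without vehicle replicate 2 and 0.08 with the length index in the model. Bcl3, an atypical inhibitor of NF-κB, was on the lower side, at 1232, 2200 and 1410 scaled reads in vehicle tumours and 790, 726 and 942 at 8 h (-0.94 ± 0.25, adjusted p = 0.278). Among cytokines, Csf3, the gene of the neutrophil growth factor G-CSF, was near the lower end of the scale, at 0.559, 2.01 and 2.92 in vehicle tumours and at 14.2, 14.1 and 18.4 at 8 h. The tumours did not overlap (2.64 ± 0.95, adjusted p = 0.278). Tnf (-0.72 ± 0.29), Il1b (-0.66 ± 0.39), Cxcl1 (0.80 ± 0.73) and Il6 (-0.20 ± 0.56) all overlapped, and the sign of Il6 turned without vehicle replicate 1 (0.10). Without vehicle replicate 2, Cxcl1 was at 0.50 and Il6 at -0.62.

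No gene of the drug's targets or of the inflammasome pathway passed. The 7 target and related peptidase genes had a median of 0.08. Of 12 inflammasome and pyroptosis genes, 8 stood lower, 3 without overlap (17.3% of all genes). The other 4 stood higher, 1 without overlap (12.6%), and the median was -0.22 (-0.18 without vehicle replicate 2). Dpp4 stood at 109, 84.985 and 82.7 scaled reads in vehicle tumours and 101, 93.9 and 117 at 8 h (0.17 ± 0.47). Dpp9 stood at 2235, 1563 and 1935 against 1852, 1993 and 2033 (0.05 ± 0.15, and -0.087 without vehicle replicate 2), with its groups intermingled. Dpp8 stood at 0.64 ± 0.31 and at 0.27 without vehicle replicate 2, and Fap at 0.49 ± 0.74. The signs of Dpp8 and Dpp9 turned with the length index in the model (-0.020 and -0.027). Of the sensor genes, Nlrp1b stood at 0.37 ± 0.40 (-0.037 in that model) and Nlrp1a at 0.57 ± 0.36 (0.17 without vehicle replicate 2), both overlapping. Casp1, the inflammasome protease gene, stood at 902, 1441 and 836 in vehicle tumours and 637, 704 and 563 at 8 h (-0.70 ± 0.28, and -0.46 without vehicle replicate 2), and Gsdmd, the pore-forming effector gene of pyroptosis, at 1697, 2883 and 1478 against 1188, 1223 and 1288 (-0.65 ± 0.24, and -0.36 without vehicle replicate 2). Both groups were separate without passing (adjusted p = 0.279 and 0.278). Transcript levels do not measure enzyme activity or inflammasome assembly.

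The 10 genes with the smallest p-values on the lower side had no overlap between the groups and did not pass. Bysl, required for small-subunit maturation, stood at 954, 1671 and 875 scaled reads in vehicle tumours and at 574, 594 and 554 at 8 h (-0.96 ± 0.23, adjusted p = 0.273). Nop56, a core protein of box C/D ribonucleoproteins, stood at 2828, 3719 and 2639 in vehicle tumours and at 1916, 1897 and 2094 at 8 h (-0.62 ± 0.15, adjusted p = 0.278). Pinx1 (-0.77 ± 0.17) and the helicase gene Ddx31 (-0.50 ± 0.12) stood lower without overlap, and Ubxn8, encoding a membrane protein of the endoplasmic reticulum, had the smallest p on this side (-0.68 ± 0.15, adjusted p = 0.193). Emc8 (-0.64 ± 0.16), Jagn1 (-0.66 ± 0.16), Mcts2 (-0.96 ± 0.23), Fam212b (-0.69 ± 0.17) and Trmt61a (-0.93 ± 0.23) completed the 10 named here. All of them kept their sign in every fit. Vehicle replicate 2 was the highest vehicle tumour for Bysl, Nop56, Ddx31 and Emc8, but not for Fam212b. Trmt61a was at -0.60 without vehicle replicate 2.

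Ribosomal protein genes were 20 of 20 lower, with 14 not overlapping (17.3% of all genes). Their median was -0.48, but -0.25 without vehicle replicate 2 and 0.01 with the length index in the model. Nuclear oxidative phosphorylation genes behaved alike, at -0.45, -0.21 and -0.08 in the same order. Heat shock genes had a median of -0.06 on day 1. Hspa1a, the inducible chaperone gene, stood at 177, 142 and 213 in vehicle tumours and at 312, 277 and 2086 at 8 h, so that a single 8 h tumour carried most of its 1.68 ± 0.58, and the difference was 0.74 without that tumour. The proliferation list was at 0.03, and the p53 target list at 0.21.

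**Figure D5:**
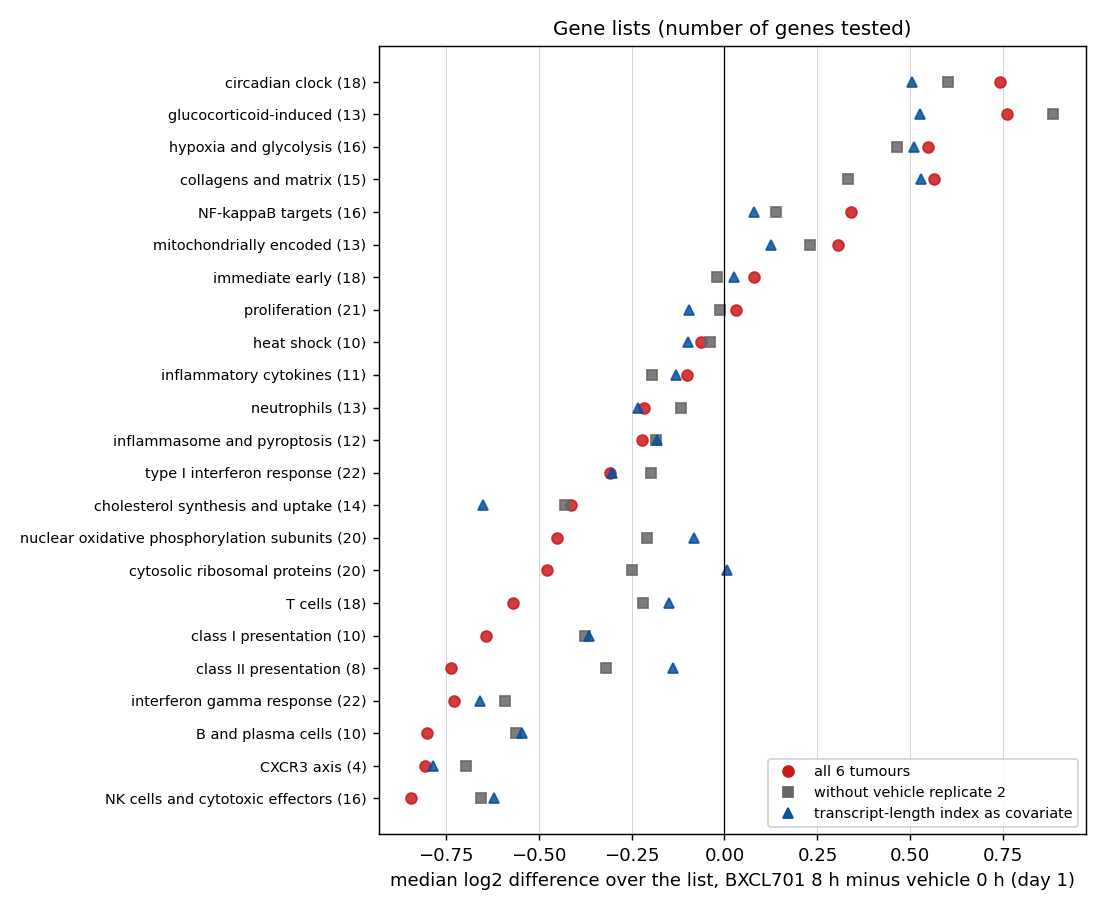
Median log2 difference, 8 h minus vehicle, over each gene list (rows, with the number tested) for all 6 tumours, without vehicle replicate 2, and with the length index in the model. Clock and glucocorticoid medians stay between 0.51 and 0.88, while the ribosomal protein median runs from -0.48 to 0.01.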

How the data were processed

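Bulk RNA was sequenced from 42 tumours in 14 groups of 3. The tools listed per the submitters' processing notes were Trimmomatic 0.36 and Bowtie 0.12.9, with the GRCm38 build. How reads were quantified and scaled is not stated there. The deposited table of genes holds signal values, named as counts by the authors but not whole, taken here as scaled reads of unknown depth, so limma replaced a count test. The deposited log2 FPKM table was an alternative. A gene was tested if it reached 10 in 3 or more libraries (16613 of 47729). The scale was log2(value + 1), which understates changes of low genes, and fitted with a coefficient for each of 14 groups over all 42 libraries (28 residual degrees of freedom, limma 3.58.1, trend and robust, R 4.3.3, data.table version 1.17.8), with Benjamini-Hochberg adjustment over all genes. The steps were tested on simulated data. Coordinates are from GENCODE M21. The transcript-length index used 11487 genes with a mean of at least 100.

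Genes named were the 10 smallest p-values in each direction of the day 1 comparison, up to 5 in each direction of the others, up to 4 per list, and 20 fixed genes, leaving out predicted models. Nr1d2, Per2, Ciart, Tef, Klf9, Pdk4, Egr1, Krt8 and B430305J03Rik lie outside this rule and were chosen after their values were seen. The members and the 42 lists were chosen with earlier results of these data known. Replicate numbers follow the order of the records. Alternatives were another scaling, no filter, a pseudocount of 5, the FPKM table, only the compared libraries, tissue or length covariates, and leaving out each library.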

Additional observations from a re-analysis of the deposited data

Results flagged for a closer look

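Within BXCL701 tumours of day 1, 14 genes differed between 8 h and the mean of 1 h and 16 h by the direct test of that difference. The log2 differences of those higher at 8 h were 6.74 for the clone B430305J03Rik, 2.62 for Dbp, 1.95 for Nr1d2, 1.82 for Per3, 1.76 for Bnip3, 1.70 for Nr1d1, 1.502 for Ciart, 1.32 for Fbxo32, 1.08 for Fkbp5, 1.05 for Pdk1 and 1.04 for Tsc22d3. Those lower at 8 h were Trmt61a at -0.94, Pinx1 at -0.91 and Hexdc at -0.81. The clone's value in vehicle replicate 1 (108 scaled reads) was within the range at 8 h, unlike the other vehicle libraries, and its cause was not tested.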

How the results depend on the processing

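No paired analysis was possible because the labels give no replicate numbers. For 8 h against vehicle, 0 genes passed under another scaling, a pseudocount of 5, the compared libraries alone and without any single library (0 to 0). There were 2 calls without a filter on low values, 4 in the log2 FPKM table (Tsc22d3, Nr1d1, Fkbp5 and Per1), 2 with tissue covariates (Fkbp5 and Tsc22d3) and 4 with the length covariate (Nr1d1, Per1, Tsc22d3 and Dbp). Against 1 h and 16 h, 14 calls became 2581 with only the 9 libraries, 37 with the length covariate and 146 without the 4 libraries of extreme length index (an alternative chosen after seeing the data), and 3 to 15 without single libraries. On days 7 and 14, 22 became 12 in the FPKM table, 0 with the compared libraries alone, 76 with the length covariate, 12 without the 4 extreme libraries and 11 to 72 without single libraries. The test of the day 1 comparison against that of days 7 and 14 gave 3 without a filter and 1 without the 4 libraries. The cause of these shifts was not tested. Of 89 named genes' differences under all settings, 1229 values kept direction and side of the threshold, 10 newly passed and 7 turned sign: with the length covariate Cd274 (-0.17), Nlrp1b (-0.037), Dpp8 (-0.020) and Dpp9 (-0.027), Dpp9 without vehicle replicate 2 or the 4 libraries (-0.087 in both, range -0.087 to 0.17 without single libraries), and Il6 without vehicle replicate 1 (range -0.62 to 0.10). Depth is unknown, and 3 tumours a group limit precision.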
